A study of Mus musculus with 6 samples.

Results

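Amino acid transporter genes were described in LLC cells, a mouse line derived from Lewis lung carcinoma, after treatment with STM2457, a small molecule that inhibits METTL3, the enzyme that writes N6-methyladenosine on RNA. The set was defined by gene symbol, but it was picked with earlier results of these data known. Its counts are therefore not independent evidence of a direction. The set holds every gene of the table in the families Slc1a, Slc7a, Slc36a, Slc38a and Slc43a except Slc7a11, which gives 39 genes of 55367 rows. The cells are labelled wild type. One group received 5 µM STM2457 for 46 h and the other the solvent DMSO for 46 h, with 3 RNA-seq libraries in each group. Whether each library stands for its own culture is not in the labels, and p-values therefore measure the spread between these libraries only, which may be technical. Both groups are a single line, with no second line and no second METTL3 inhibitor among the samples analysed here.

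Cells cannot take up amino acids through the membrane without transporters, and several of these families divide that work. Exchangers of the Slc1a and Slc7a families swap one amino acid for another, Slc38a and some Slc1a carriers use the sodium gradient to concentrate amino acids, and Slc36a carriers move small amino acids together with protons. Some members sit in the lysosome membrane, where they release amino acids or report their level to the growth kinase complex mTORC1. Several plasma membrane members are known targets of ATF4, the transcription factor of the amino acid response.

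Reads assigned to genes numbered 17671693 to 17917211 per library. A gene with no read could still have had up to 3 reads, or 0.167 to 0.170 CPM, a limit that covers counting error only. The markers of an epithelial origin were at or near 0: Epcam and Cdh1 had no read, and the summed level of the 5 epithelial markers was 0 to 9.91 normalised reads in STM2457 libraries, against 11.9 to 14.0 in DMSO libraries. Vim, Fn1 and Cdh2, which mark mesenchymal cells, were all present and summed to 74176 to 75733 normalised reads in STM2457 libraries, against 92462 to 94230 in DMSO libraries. Within that sum Vim (fold 0.872, adjusted p = 4.1e-05) and Fn1 (fold 0.711, adjusted p = 3.1e-11) fell, while Cdh2 rose (fold 1.32, adjusted p = 5.3e-06). Of 7 leukocyte markers 5 had any read, with sums of 98.1 to 122 in STM2457 libraries and 100 to 115 in DMSO libraries, while Cd3e and Adgre1 were at 0. The part of these differences in the results was not tested, and in such bulk samples fewer cells of a kind and less RNA per cell cannot be told apart.

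Of the 39 genes, 26 had at least 1 read and 17 passed the level filter, a mean deposited value of at least 3.32, which is the log2 of 10 reads. Among these 17 genes 9 fell after STM2457, 5 rose and 3 did not pass the test, which was limma at an adjusted p of 0.05. Many genes differed between the groups: 56.3% of all 12618 genes tested were called, although 49.6% of the called genes had a log2 fold under 0.32 in size. Lower calls made up 52.9% of the transporter genes and 25.7% of all genes tested, while higher calls made up 29.4% of the transporter genes and 30.7% of all genes tested. Called genes are more frequent at high levels. Among genes with a mean of at least 500 normalised reads 64.4% were called and 24.0% were called lower, and of the 11 transporter genes at that level 10 were called and 7 of them were lower.

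The median fold of the 17 genes, STM2457 over DMSO, was 0.837, beside 1.01 for all genes tested, and 8 of the 17 had a log2 fold of at least 0.32 in size. The 3 STM2457 libraries lay wholly below the 3 DMSO libraries for 10 of the 17 genes and wholly above them for 5, 15 in all, while 28.4% and 33.4% of all genes tested were separated in that way, 61.8% in all. DMSO replicate 2 was the highest DMSO library for 11 of the 17 genes, among them 7 of the 9 lower ones, and its part in the result was not tested beyond leaving it out. Without it 10 genes were called lower and 4 higher. The split of calls also moved with the scaling. Centring each library on its upper quartile gave 11 lower and 3 higher transporter genes, and over all genes 4814 lower and 2819 higher in place of 3240 and 3868.

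**Figure D1:**
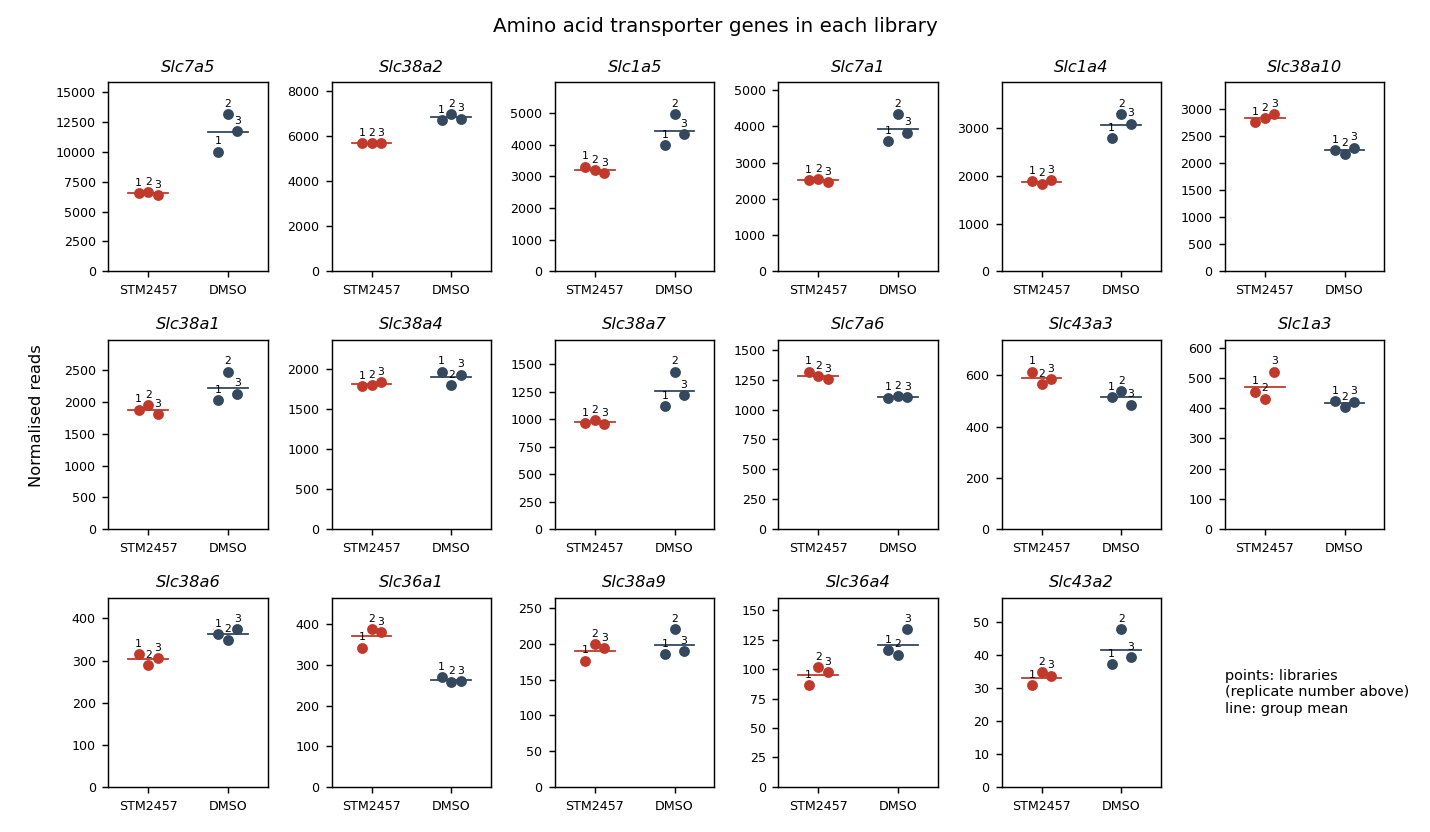
Normalised reads (vertical axis, from 0, with its own scale for each gene) of the 17 tested transporter genes in each library, STM2457 left of DMSO. Points are libraries with their replicate number and lines are group means. Slc7a5 spans 6361 to 6610 reads in STM2457 libraries and 10019 to 13189 in DMSO libraries, and groups overlap for Slc38a4 and Slc38a9 alone among the 17.

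The strongest decrease was in Slc7a5, which encodes LAT1, the light chain that exchanges glutamine and other amino acids for leucine and other large neutral amino acids. The gene (chr8:121881150-121907694, GRCm38, minus strand) had 6564, 6610 and 6361 normalised reads in the STM2457 libraries, against 10019, 13189 and 11739 in the DMSO libraries. Every STM2457 library was lower than every DMSO library, and the DMSO libraries were the more spread out, with means of 6512 ± 132 reads after STM2457 and 11649 ± 1587 reads after DMSO (SD, n = 3 each). Slc7a5 thus fell to 0.562 of its DMSO level (95% interval 0.462 to 0.684, adjusted p = 0.0019). DMSO replicate 2 was 1.21 times the mean of the other DMSO libraries, and without it the plain ratio of group means was 0.599.

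LAT1 works only as a heterodimer with the heavy chain encoded by Slc3a2, which carries it to the plasma membrane. Slc3a2, which lies outside the families chosen, had 5850, 5898 and 5643 normalised reads in STM2457 libraries, against 8776, 11190 and 9802 in DMSO libraries. Its groups did not overlap and it fell to 0.587 of the DMSO level (95% interval 0.507 to 0.680, adjusted p = 0.00038). Per kilobase of merged exons the ratio of Slc7a5 to Slc3a2 was 1.07 in each of the 3 STM2457 libraries, against 1.09, 1.12 and 1.14 in the DMSO libraries. The size of such a ratio, though not its change between groups, depends on the lengths used. Merged exons span 3708 bases for Slc7a5 and 3529 for Slc3a2, while their longest coding transcripts have 3517 and 2813. The other heavy chain gene, Slc3a1, had 1.99, 1.99 and 0.991 normalised reads in STM2457 libraries and 3.00, 2.98 and 1.00 in DMSO libraries, too few to test.

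Slc7a6, another light chain that pairs with the Slc3a2 protein, moved the other way. It encodes y+LAT2, an exchanger of cationic for neutral amino acids. Slc7a6 had 1317, 1279 and 1256 normalised reads in STM2457 libraries, against 1100, 1114 and 1104 in DMSO libraries. The groups did not overlap and the gene rose 1.16-fold (95% interval 1.09 to 1.24, adjusted p = 2.0e-04). Set per kilobase against Slc7a5, Slc7a6 stood at 0.160 ± 0.00291 after STM2457 and 0.0780 ± 0.0104 after DMSO (SD, n = 3 each), and against Slc3a2 at 0.171 ± 0.00328 after STM2457 and 0.0869 ± 0.00995 after DMSO.

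The remaining light chains were at or near the limit of detection. Slc7a8, Slc7a9, Slc7a10 and Slc7a12 had no read in any library, and Slc7a13 had 2 reads and Slc7a15 5 reads over all 6. Slc7a7, which encodes y+LAT1, had 5.96, 9.94 and 6.94 normalised reads in STM2457 libraries and 7.01, 5.96 and 5.02 in DMSO libraries, below the level filter. The cystine exchanger gene Slc7a11, set apart from the families by the choice of genes, is a further light chain of the Slc3a2 protein. It had 258, 297 and 253 normalised reads in STM2457 libraries, against 681, 845 and 751 in DMSO libraries, and its ratio to Slc3a2 per kilobase was 0.0118 ± 0.00087 after STM2457 and 0.0194 ± 0.000268 after DMSO.

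Both genes of the neutral exchangers named ASCT fell. Slc1a4 encodes ASCT1, which exchanges alanine, serine, cysteine and threonine. The gene (chr11:20302180-20332713, GRCm38, minus strand) had 1888, 1840 and 1908 normalised reads in STM2457 libraries, against 2789, 3304 and 3100 in DMSO libraries, with no overlap. Slc1a4 was at 0.615 of its DMSO level (95% interval 0.572 to 0.660, adjusted p = 3.8e-10), the smallest adjusted p of the 17 genes. Slc1a5 encodes ASCT2, a main route of glutamine into many cultured tumour cells, and had 3303, 3185 and 3101 normalised reads in STM2457 libraries, against 3994, 4972 and 4319 in DMSO libraries. Its groups did not overlap either, and it fell to 0.725 (95% interval 0.645 to 0.814, adjusted p = 0.00055), or 0.769 without DMSO replicate 2.

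The promoter of Slc1a4 is shown because, of the 18 windows of tested transporter genes in the RefSeq promoter table (GRCm38.p6), it was the only one with the letters TGATGNAA, the core of the element that ATF4 binds together with C/EBP proteins. The window runs from 250 bases before to 50 bases after the start, at chr11:20332664-20332963 on the minus strand, and the capitals mark the match, which reads on the opposite strand and begins at position -4 of the gene's strand with the start counted as 0.
Slc1a4: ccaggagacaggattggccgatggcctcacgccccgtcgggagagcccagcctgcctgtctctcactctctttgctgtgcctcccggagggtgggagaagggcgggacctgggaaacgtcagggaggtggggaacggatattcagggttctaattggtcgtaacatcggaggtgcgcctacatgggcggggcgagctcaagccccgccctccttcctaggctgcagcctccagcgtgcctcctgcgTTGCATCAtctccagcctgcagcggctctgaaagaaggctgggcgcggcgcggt
Searched on both strands, TGATGNAA was in 3.97% of all 32851 windows of that table and in 2.10% of the 11995 windows of genes tested here. Of the 39 transporter genes 28 had a window, and Slc7a5, Slc1a5, Slc38a1 and Slc43a3 were the tested ones that had none. Tested or not, the transporter genes had 39 windows, and 3 of these held TGATGNAA. Those other than the window of Slc1a4 belong to Slc7a7, which was below the level filter.

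Slc7a1 encodes CAT1, the widely used uniporter for arginine, lysine and ornithine, and was the only one of the 5 genes placed with the cationic transporters to pass the level filter. The gene (chr5:148327410-148399904, GRCm38, minus strand) had 2513, 2548 and 2454 normalised reads in STM2457 libraries, against 3584, 4344 and 3828 in DMSO libraries. The highest STM2457 library lay below the lowest DMSO library, and Slc7a1 fell to 0.641 of the DMSO level (95% interval 0.588 to 0.699, adjusted p = 4.2e-07). Slc7a3, which encodes the related carrier CAT3, had 7.95, 2.98 and 4.95 normalised reads in STM2457 libraries, against 9.01, 11.9 and 12.1 in DMSO libraries, so all 3 STM2457 libraries were lower. It was below the filter, and with no filter its adjusted p was 0.040. Slc7a4 had 2.98, 5.96 and 4.95 normalised reads in STM2457 libraries and 8.01, 5.96 and 3.01 in DMSO libraries, Slc7a14 had 2 reads in all and Slc7a2 had none.

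The sodium-coupled carriers of the Slc38a family split by member. Slc38a2 encodes SNAT2, which concentrates alanine, glutamine and other small neutral amino acids and is known to be induced by amino acid starvation. Slc38a2 had 5661, 5690 and 5673 normalised reads in STM2457 libraries, against 6708, 6975 and 6764 in DMSO libraries, tight and fully separated groups. It fell to 0.833 of the DMSO level (95% interval 0.792 to 0.875, adjusted p = 9.0e-07). Slc38a1, which like Slc38a2 lies on chromosome 15, encodes SNAT1, a glutamine carrier of the same system A. Slc38a1 had 1883, 1954 and 1810 normalised reads in STM2457 libraries, against 2030, 2481 and 2136 in DMSO libraries. The lowest DMSO library was close above the highest STM2457 library, and the fold was 0.852 (95% interval 0.773 to 0.939, adjusted p = 0.0075), or 0.904 without DMSO replicate 2.

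Slc38a4, also on chromosome 15, encodes SNAT4, a system A carrier best known from liver and placenta. Slc38a4 had 1792, 1807 and 1842 normalised reads in STM2457 libraries and 1971, 1804 and 1934 in DMSO libraries, so the groups overlapped through DMSO replicate 2. Its fold was 0.954 (95% interval 0.898 to 1.01, adjusted p = 0.17), and without DMSO replicate 2 it passed the test with an adjusted p of 0.031. Slc38a8, the remaining gene of that group, had no read.

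Slc38a6, a member whose substrates are less settled, had 316, 288 and 305 normalised reads in STM2457 libraries, against 364, 349 and 374 in DMSO libraries. The groups were separate and it fell to 0.837 (95% interval 0.755 to 0.927, adjusted p = 0.0035). Slc38a10, reported to carry glutamine, alanine, glutamate and aspartate in mouse cells, went the other way. The gene (chr11:120103960-120151346, GRCm38, minus strand) had 2743, 2829 and 2903 normalised reads in STM2457 libraries, against 2236, 2170 and 2278 in DMSO libraries, and rose 1.27-fold (95% interval 1.20 to 1.34, adjusted p = 7.6e-08). Its exons overlap those of Gm11769 on the other strand, and reads of the pair cannot be told apart, as no source used here says whether counting used strand. Slc38a3, Slc38a5 and Slc38a11 had no read.

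Genes whose proteins act mainly in the lysosome or with protons did not move as one. Slc36a1 encodes PAT1, a proton-coupled exporter of small neutral amino acids from lysosomes, and showed the largest increase of the set. The gene (chr11:55204350-55236330, GRCm38, plus strand) had 343, 388 and 381 normalised reads in STM2457 libraries, against 270, 259 and 260 in DMSO libraries. Every STM2457 library was higher and the gene rose 1.41-fold (95% interval 1.26 to 1.57, adjusted p = 4.9e-06). Slc36a4 encodes PAT4, a carrier of proline and tryptophan, and had 86.4, 101 and 97.1 normalised reads in STM2457 libraries, against 116, 112 and 134 in DMSO libraries. It fell to 0.789 (95% interval 0.660 to 0.943, adjusted p = 0.015), a call lost when STM2457 replicate 1 was left out (adjusted p = 0.081) and when DMSO replicate 3 was (adjusted p = 0.090). Slc36a2 and Slc36a3 had no read.

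Slc38a7 encodes SNAT7, which exports glutamine and asparagine from lysosomes. Slc38a7 had 968, 992 and 960 normalised reads in STM2457 libraries, against 1123, 1435 and 1224 in DMSO libraries. The STM2457 libraries all lay below the DMSO libraries and the fold was 0.776 (95% interval 0.693 to 0.870, adjusted p = 0.00083), or 0.830 without DMSO replicate 2, which was 1.22 times the mean of the other two. Slc38a9 encodes the lysosomal arginine sensor that signals to mTORC1. It had 177, 200 and 194 normalised reads in STM2457 libraries and 186, 220 and 190 in DMSO libraries, which overlapped. Its fold was 0.958 (95% interval 0.835 to 1.10, adjusted p = 0.59), and its direction turned without DMSO replicate 2, where the fold was 1.01. Its exons overlap Gm47827 on the other strand.

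The promoters of Slc36a1 and Slc38a7 are shown because both carry CACGTG, the core of the element through which TFEB and related factors act on lysosomal genes, although the pair changed in opposite directions. Both windows span 250 bases before to 50 bases after the RefSeq start, Slc36a1 at chr11:55204090-55204389 on the plus strand and Slc38a7 at chr8:95853442-95853741 on the minus strand. The capitals mark CACGTG, which reads the same on both strands.
Slc36a1: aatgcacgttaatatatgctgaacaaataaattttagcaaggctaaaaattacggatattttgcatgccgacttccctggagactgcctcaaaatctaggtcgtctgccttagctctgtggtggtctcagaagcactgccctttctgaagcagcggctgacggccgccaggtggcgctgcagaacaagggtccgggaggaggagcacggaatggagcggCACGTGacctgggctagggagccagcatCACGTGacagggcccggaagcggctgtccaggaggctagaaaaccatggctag
Slc38a7: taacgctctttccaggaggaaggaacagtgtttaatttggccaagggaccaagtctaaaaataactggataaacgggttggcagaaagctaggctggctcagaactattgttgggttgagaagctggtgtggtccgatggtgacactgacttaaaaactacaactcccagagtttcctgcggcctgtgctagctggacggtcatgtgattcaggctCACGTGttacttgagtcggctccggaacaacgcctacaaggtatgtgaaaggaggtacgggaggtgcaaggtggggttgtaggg
In the Slc36a1 window the matches begin at positions -31 and -3, and in that of Slc38a7 at position -34. These were the only windows with CACGTG among the 18 of tested transporter genes, and 10.1% of the windows of all genes tested and 7.15% of all windows held it. The cyclic AMP response element TGACGTCA was in 1 of the 18 windows, that of Slc38a6 at position -121, and in 3.18% of the windows of genes tested.

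The glutamate and aspartate carriers were represented by Slc1a3, which encodes GLAST, a sodium-coupled carrier best known from astrocytes. Slc1a3 had 454, 431 and 520 normalised reads in STM2457 libraries, against 423, 404 and 421 in DMSO libraries. The groups were separate by a narrow margin and STM2457 replicate 3 was the highest. The gene rose 1.12-fold (95% interval 1.02 to 1.24) with an adjusted p of 0.043, and it no longer passed in 8 of the 12 alternatives, with adjusted p-values from 0.020 to 0.31 over all 12. Under upper-quartile centring its adjusted p was 0.27. Without STM2457 replicate 3 its adjusted p was 0.31, without STM2457 replicate 1 it was 0.058, and without DMSO replicates 1, 2 and 3 in turn it was 0.052, 0.092 and 0.072. Slc1a1 and Slc1a6 had no read, Slc1a2 had 2 and Slc1a7 3 over all 6 libraries.

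In the Slc43a family, Slc43a3, which encodes a carrier of purine nucleobases rather than of amino acids, had 615, 565 and 585 normalised reads in STM2457 libraries, against 516, 540 and 486 in DMSO libraries. The groups were separate and Slc43a3 rose 1.14-fold (deposited log2 difference 0.10, SE 0.03, adjusted p = 0.0082). That call was lost when STM2457 replicate 1 was left out, with an adjusted p of 0.057, or when DMSO replicate 3 was, with 0.055, and under upper-quartile centring, with 0.099. Slc43a2 encodes LAT4, a facilitated carrier of branched-chain amino acids, phenylalanine and methionine, and had 30.8, 34.8 and 33.7 normalised reads in STM2457 libraries and 37.1, 47.7 and 39.2 in DMSO libraries. All STM2457 libraries were lower, yet the gene did not pass the test (fold 0.807, 95% interval 0.611 to 1.07, adjusted p = 0.14), and its exons overlap Gm45606 on the other strand. Slc43a1, which encodes LAT3, had 1.99, 0.994 and 5.95 normalised reads in STM2457 libraries and 2.00, 0.993 and 6.03 in DMSO libraries.

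**Figure D2:**
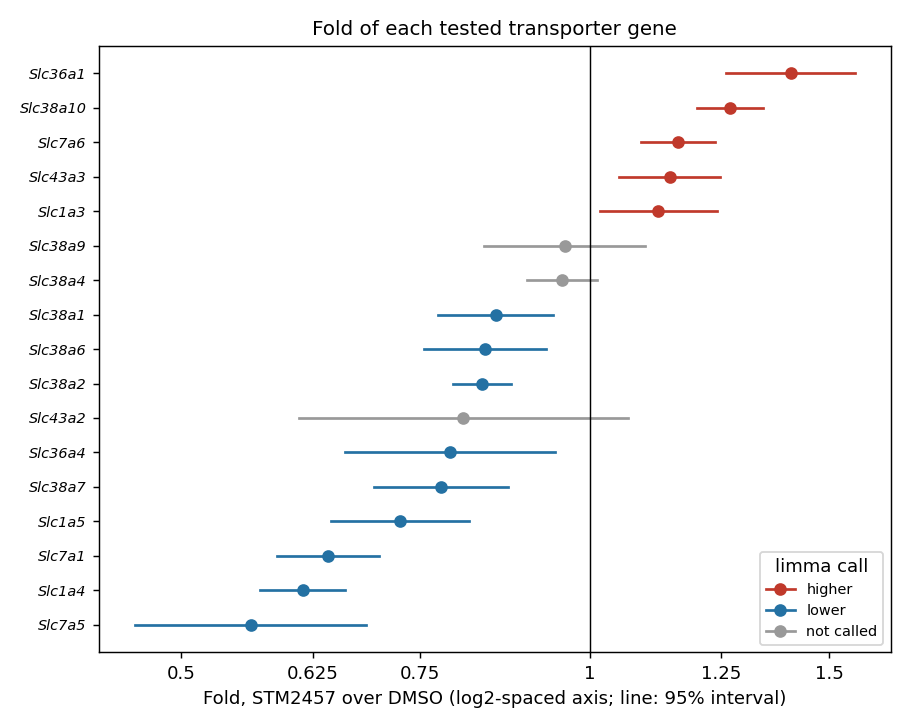
Fold of each tested transporter gene, STM2457 over DMSO (horizontal axis, log2-spaced), with points for the fitted fold and lines for its 95% interval, coloured by the limma call. The folds run from 1.41 for Slc36a1 at the top to 0.562 for Slc7a5 at the bottom, and the 3 genes that did not pass the test have folds of 0.807 to 0.958.

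Levels per kilobase of merged exons place the members on a common scale. In DMSO cells Slc7a5 led with 3142 ± 428 normalised reads per kilobase, followed by Slc1a5 with 1061 ± 119, Slc1a4 with 781 ± 66.0 and Slc38a2 with 771 ± 15.9, and the least abundant tested gene was Slc43a2 with 4.11 ± 0.558 (SD, n = 3). After STM2457 Slc7a5 still led with 1756 ± 35.6, followed by Slc1a5 with 766 ± 24.2 and Slc38a2 with 642 ± 1.64, while Slc1a4 had 479 ± 9.02. In the DMSO order, Slc1a4 and Slc38a2 did not differ beyond their SD, nor did Slc7a1 from its neighbours Slc38a10 and Slc38a7, Slc38a1 from Slc43a3, or Slc36a1 from its neighbours Slc1a3 and Slc38a6. The order also moves with the length used. With the longest coding transcript in place of the merged exons, Slc38a2 stood at 1463 and Slc1a4 at 781 normalised reads per kilobase in DMSO cells, and Slc38a1 stood at 305 rather than 129, its merged exons spanning 17236 bases and its transcript 7266.

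The summed level of the 39 genes was 5704, 5697 and 5630 normalised reads per kilobase in STM2457 libraries, against 7180, 8553 and 7853 in DMSO libraries. Slc7a5 alone made up 30.9 ± 0.419% of that sum after STM2457 and 39.8 ± 2.02% after DMSO (SD, n = 3 each). The share of Slc38a2 was 11.3 ± 0.0864% after STM2457 and 9.85 ± 0.678% after DMSO, and that of Slc1a5 was 13.5 ± 0.346% after STM2457 and 13.5 ± 0.397% after DMSO. The sum and these shares rest on merged exon lengths and would move with the length used. Their SD covers the spread between libraries only.

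**Figure D3:**
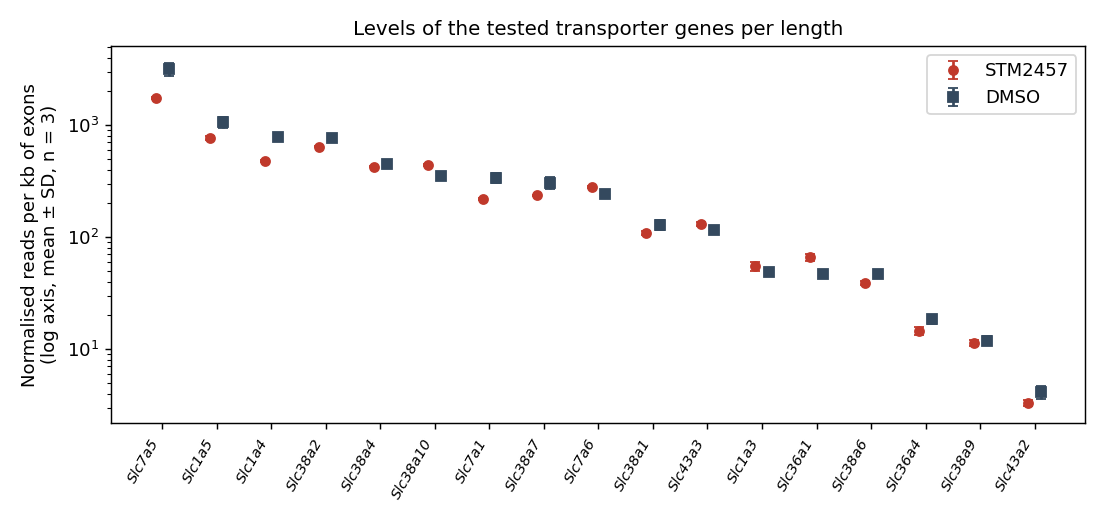
Normalised reads per kilobase of merged exons (log-scaled vertical axis) of the 17 tested transporter genes, ordered by their DMSO level, with means and SD of the 3 libraries, STM2457 left of DMSO. Slc7a5 is the highest in both groups, with 1756 after STM2457 and 3142 after DMSO, and Slc43a2 is the lowest.

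The 4 transporter genes of the smallest fold, Slc7a5, Slc1a4, Slc7a1 and Slc1a5, are all reported ATF4 targets. That list of 9 transporters holds 6 of the 39 genes together with Slc3a2, Slc6a9 and Slc7a11, and it was drawn up with earlier results of these libraries known, so its count is not independent evidence of a direction. All 8 of its genes that were tested fell, with a median fold of 0.601, beside 25.7% of all genes tested, while Slc7a3 was under the filter. Slc6a9, the glycine carrier GlyT1, had 481, 439 and 449 normalised reads in STM2457 libraries, against 739, 1218 and 861 in DMSO libraries. Its fold was 0.496 (95% interval 0.314 to 0.785, adjusted p = 0.021), and the call was lost without any one of the STM2457 libraries and without DMSO replicate 3.

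Regulators of the amino acid response mostly fell. Of 12 such genes, all tested, 8 fell, none rose and 4 did not pass the test, beside 25.7% lower and 30.7% higher among all genes tested. The 4 were Atf5 (fold 1.17, adjusted p = 0.15), Cebpb (1.19, 0.18), Gcn1 (1.00, 0.98) and Impact (1.02, 0.66), none with a fold below 1. Exons of Atf5 and of Cebpb overlap genes on the other strand. Atf4 itself had 9893 ± 302 normalised reads after STM2457 and 15003 ± 1088 after DMSO, a fold of 0.660 (SD, n = 3 each, adjusted p = 4.6e-10). Trib3, a pseudokinase induced by ATF4 that restrains it, had the smallest fold, 0.271 (adjusted p = 0.0022). Nupr1, a stress-induced chromatin protein, was at 0.448 (adjusted p = 4.4e-06) and Atf3, a stress-induced factor of the ATF family, at 0.491 (adjusted p = 1.3e-04). Cebpg, a partner of ATF4, was at 0.838 (adjusted p = 5.1e-05). Ddit3, which encodes the stress factor CHOP, was at 0.431 (adjusted p = 0.015), and its call was lost without any one of the STM2457 libraries. Without STM2457 replicate 2 the number that fell was 5. The number that rose was 1 without DMSO replicate 2, and 2 both with a replicate block and in a fit with neither a trend nor a robust prior. For several of these genes DMSO replicate 2 was also the highest DMSO library, at 1.11 times the mean of the other two for Atf4 and 1.44 times for Trib3.

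Of 31 genes of the machinery that reports amino acids to mTORC1, 29 were tested, 9 rose, 7 fell and 13 did not pass, with a median fold of 0.994. These counts lie near the shares over all genes tested, 30.7% higher and 25.7% lower, and under upper-quartile centring 12 fell. Sesn2, a leucine sensor and known ATF4 target, had 911 ± 40.9 normalised reads after STM2457 and 1996 ± 196 after DMSO, a fold of 0.458 (adjusted p = 8.0e-10). Rragc, which encodes a Rag GTPase that brings mTORC1 to the lysosome, had 2499 ± 78.2 after STM2457 and 1732 ± 34.4 after DMSO, a fold of 1.44 (adjusted p = 8.4e-11). Lamtor3, part of the lysosomal anchor of the Rag GTPases, rose 1.30-fold (adjusted p = 4.6e-07). Nprl3 of the inhibitory complex GATOR1 was at 0.720 (adjusted p = 4.3e-08), Seh1l of GATOR2 at 0.799 (adjusted p = 9.1e-07) and Lars, the leucyl-tRNA synthetase, at 0.755 (adjusted p = 5.7e-09).

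Of 23 other amino acid and peptide carriers 8 were tested, 4 rose, 2 fell and 2 did not pass, with a median fold of 1.13, beside 30.7% higher and 25.7% lower among all genes tested. The number that fell was 1 with a replicate block, without any one of the STM2457 libraries and without DMSO replicate 3. Slc16a10, a carrier of aromatic amino acids, had 51.9 ± 3.01 normalised reads after STM2457 and 32.3 ± 5.07 after DMSO, a fold of 1.61 (adjusted p = 0.0015). Pqlc2, the lysosomal exporter of cationic amino acids now named Slc66a1, had 123 ± 7.95 after STM2457 and 82.0 ± 8.41 after DMSO, a fold of 1.50 (adjusted p = 1.7e-04). Slc15a4, a lysosomal carrier of histidine and peptides, rose 1.20-fold (adjusted p = 0.0039) and Slc6a6, the taurine carrier, 1.15-fold (adjusted p = 1.4e-04). Slc6a15, a neutral amino acid carrier, was at 0.811 (adjusted p = 0.0018), and Slc6a9 was the other gene that fell.

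Among 12 carriers of the inner mitochondrial membrane 10 were tested, 4 rose, 1 fell and 5 did not pass, beside the same 30.7% higher and 25.7% lower over all genes. The number that fell was 2 under upper-quartile centring and without DMSO replicate 1. Slc25a44, which imports branched-chain amino acids into mitochondria, had 833 ± 16.4 normalised reads after STM2457 and 523 ± 27.9 after DMSO, a fold of 1.59 (adjusted p = 2.9e-10). Slc25a22, a glutamate carrier, rose 1.34-fold (adjusted p = 6.9e-07), Slc25a12, the aspartate and glutamate exchanger aralar, 1.29-fold (adjusted p = 9.8e-07), and Slc25a15, an ornithine carrier, 1.20-fold (adjusted p = 0.0039). Sfxn3, a sideroflexin reported to carry serine, was at 0.706 (adjusted p = 5.9e-08). Among the sparsely read transporter genes Slc7a4 and Slc7a7, and outside the set Slc3a1, Slc6a6, Slc6a9, Slc15a4, Ddit3, Cebpg, Nprl3, Rragc and Seh1l share exon positions with an opposite-strand gene, and reads of each such pair cannot be told apart.

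**Figure D4:**
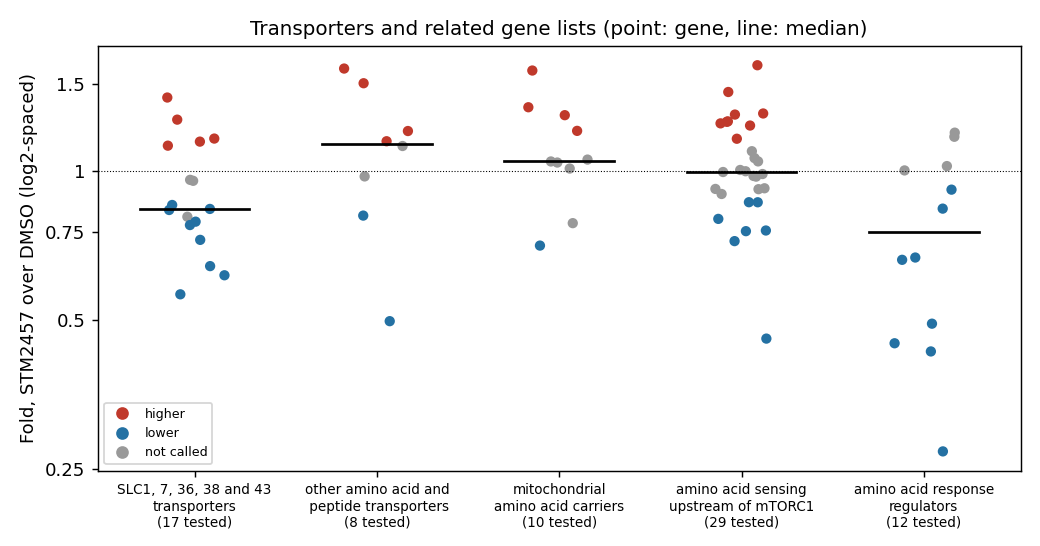
Fold, STM2457 over DMSO, of each tested gene in the transporter set and in the other lists (log2-spaced axis), with a point for each gene and a line at the median of its list. Points are coloured by the limma call. The medians are 0.837 for the transporter set, 0.748 for the response regulators, 0.994 for the genes upstream of mTORC1, 1.05 for the mitochondrial carriers and 1.13 for the other amino acid and peptide transporters.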

How the data were processed

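Per the labels' protocols, total RNA was taken from treated LLC cells for mRNA sequencing. HISAT2 2.2.1, featureCounts 2.0.1, FastQC 0.11.9 and DESeq2 are named, with GRCm38, per the submitters' processing notes, while no source used here states the annotation or strand setting. The authors deposited log2 values, 1 column per library, with 31229 of 55367 rows at 0 throughout. The values have the form of a regularised log2 transform (fitted prior SD 0.186), in which differences are shrunken, to 60.0% at the highest counts.

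Its equations were inverted to recover reads. Of the recovered values 99.8% were whole within 0.05 reads at means of 0.4 to 10 reads, 96.7% from 10 to 500, 87.2% from 500 to 2000 and 57.8% above. Under a mean of 0.4 reads, 0% of the values of 4519 genes were whole. The 2 reads given for each of Slc1a2, Slc7a13 and Slc7a14 are therefore uncertain. Values were rounded and divided by size factors of 0.995 to 1.01 to give normalised reads. Calls and adjusted p-values come from limma 3.58.1 (R 4.3.3, statmod 1.5.0, with a trend and a robust prior) on the deposited values. They use Benjamini-Hochberg adjustment over 12618 genes. Folds and intervals come from limma-voom on recovered reads. Folds given without DMSO replicate 2 are instead plain ratios of group means of normalised reads. In a simulation of STM2457 against DMSO over 12632 genes, limma called 97 of 100 genes of log2 fold 1, 87 of 100 of 0.5 and 8 of 12432 unchanged ones. The simulation gave every gene the same dispersion, 0.00058, and drew the libraries independently. Most of its genes were unchanged, whereas 56.3% of the genes tested here were called. Its count of false calls is therefore not the error rate of the calls given here. The design had allowed for counts, and limma was its stated choice for log values.

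The members and lists were chosen with earlier results of these data known. Every member is accounted for. Library values are given for every tested member, a wider choice than the rule for called or more changed ones. Up to 6 genes of smallest adjusted p per other list are named, and beyond that rule the 4 response regulators that did not pass. Of 89 listed symbols 88 matched directly and 1 by a RefSeq synonym. Gene positions are from GENCODE on GRCm38.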

Additional observations from a re-analysis of the deposited data

How the results depend on the processing

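Of the transporter genes, 11 of the 17 tested kept their direction and side of the threshold under all alternatives that gave a value. Leaving out each library in turn gave 3 to 5 genes called higher and 8 to 10 called lower. Upper-quartile centring put the median log2 difference of all genes at -0.034, in place of 0.004. It gave 3 higher and 11 lower transporter genes, and over all genes 2819 higher and 4814 lower in place of 3868 and 3240. With no filter on low values 10 members were called lower, Slc7a3 being added. On the deposited log2 scale the median of the tested members was -0.10, in place of -0.26 on the scale of reads. Slc38a9, which did not pass the test, ran over the leave-one-out fits from -0.042 without DMSO replicate 1 to 0.0060 without DMSO replicate 2 (adjusted p = 0.90 for the second). Upper-quartile centring ended the calls of Slc1a3 (adjusted p = 0.27) and Slc43a3 (0.099) and added Slc38a4 (0.0065) and Slc43a2 (0.014); with neither a trend nor a robust prior Slc1a3 had 0.051. It also gave 12 genes upstream of mTORC1 called lower. Whether the shared replicate numbers pair the libraries is not in the labels. The deviations of same-numbered libraries correlated at 0.05, 0.01 and 0.04, and those of differently numbered ones at -0.056 to 0.022. Such small values from so few libraries cannot decide it. With a replicate block 5 members were called higher and 9 lower, and the block ended the call of Slc6a9 (adjusted p = 0.064). Levels per kilobase by transcript length were chosen after seeing the data. Depth limits the members with a mean under 10 reads, whose counting error is large, and the error of recovered reads grows above a mean of 500.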

Other observations

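The letters GGACT, a common context of N6-methyladenosine, were counted in the longest coding transcript of each gene. The 17 tested transporter genes had a median of 1.09 per kilobase (quartiles 0.858 and 1.40), beside 1.04 (quartiles 0.639 and 1.50) over 11013 tested genes with a coding transcript. Slc43a3 held 2.32 per kilobase, Slc7a5 2.27 and Slc1a5 2.17, while Slc38a4 held 0.254. These counts describe the sequence only and say nothing of whether a site is methylated.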
